A study of Mus musculus with 8 samples.

Results

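The genes described here are 6 members of the interleukin-6 and oncostatin M family: the ligands Il6, Lif, Il11 and Osm, and the receptor chains Osmr and Lifr. They were chosen by name, 6 of the 31053 genes in the tables of unique molecular identifiers (UMIs, 1 count per captured RNA molecule), and each had 1 row. Cytokines of this family signal through receptor complexes that share the chain gp130 (Il6st) and act through JAK kinases and the transcription factor STAT3. Interleukin-6 and interleukin-11 first bind their own receptor chains, whereas leukemia inhibitory factor (Lif) and oncostatin M (Osm) pair gp130 with the Lifr or Osmr chain. In inflamed gut, oncostatin M is known as a product of myeloid cells, and stromal cells are known as its main responders.

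Colonic lamina propria of C57BL/6 mice, 10 to 12 weeks old, was measured by droplet single-cell RNA sequencing of the 3′ ends of transcripts in 8 libraries. The groups were wildtype untreated, mutant untreated, wildtype after dextran sulfate sodium (DSS) and mutant after DSS, with 2 libraries each, which the series calls biological replicates. DSS, a polymer that injures the colonic epithelium, was given at 2% in drinking water for 7 days and followed by 3 days of plain water, and all mice, untreated ones included, were taken on day 10. The mutants carry a substitution in the nuclear receptor RORgt, written S203AKI in the sample titles and RORgtS182A in the series title, and gene counts do not show whether it is present. Cells had been enriched for CD4+ T cells with a magnetic kit, yet many barcodes carried markers of other cells, and it is these stromal and myeloid barcodes that hold most UMIs of the 6 genes.

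The tables held 10563 to 16133 barcodes and 34497509 to 46960005 UMIs per library, and 96721 of 100673 barcodes passed the filters. Barcodes were clustered without the 6 genes and without their pathway genes, and clusters were named from fixed markers as fibroblast-like (9345 barcodes), endothelial-like (3058), macrophage- or monocyte-like (11221), dendritic-like (1859), neutrophil-like (186) and T-like (56516), written without "-like" from here on. All 8 fibroblast markers and all 8 T markers were detected in every library of those classes. They were also all detected in every library of macrophages and monocytes, so detection alone does not set classes apart. Another 3368 barcodes stayed unnamed, 804 of them in a cluster led by Il11 that mixed fibroblast with macrophage markers. The first untreated mutant library stood apart, since it gave 89.6% of a cluster of 1022 barcodes led by Pbsn, Tgm4 and Svs4. The same library gave 95.8% of a cluster of 71 barcodes led by Svs5 and Svs4. It also gave 100% of a cluster of 23 barcodes with Tgm4 and Pbsn among its leading genes. These clusters stayed unnamed and entered no tested class. In the cluster of 1022 barcodes all 8 T markers were detected and T was the best-scoring name. It stayed unnamed because most of its barcodes came from 1 library. So 916 barcodes of the first untreated mutant library were left out there, while its T class kept 3840. Which tissue the leading transcripts of the 3 clusters came from was not tested. Of 99487 barcode sequences, 1176 were found in more than 1 library. The labels give no preparation batch, so a batch that followed treatment cannot be told apart from it. A level is given as CPM, the UMIs of a gene per 1000000 UMIs of the summed class in 1 library. A member is called in a comparison when its adjusted p in edgeR's quasi-likelihood test is under 0.05 over all genes of that class.

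The ligands Il6 and Il11 and the receptor chain Osmr came from stroma. Of all Il11 UMIs, 87.4% lay in fibroblasts, a class with 16.5% of all UMIs, and fibroblasts also held 70.3% of Il6 and 60.1% of Lif UMIs. Such shares pool libraries of unequal weight. Over all barcodes the second wildtype DSS library had 9646 Il11 UMIs, and the untreated libraries had 161 to 579 each. Osm was placed differently: 65.9% of its UMIs lay in macrophages and monocytes, which held 12.8% of all UMIs, and 18.5% in the far more numerous T cells. Osmr UMIs were divided between fibroblasts (55.5%) and endothelium (32.3%), and Lifr UMIs among fibroblasts (47.1%), endothelium (21.2%) and macrophages and monocytes (18.7%).

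**Figure D1:**
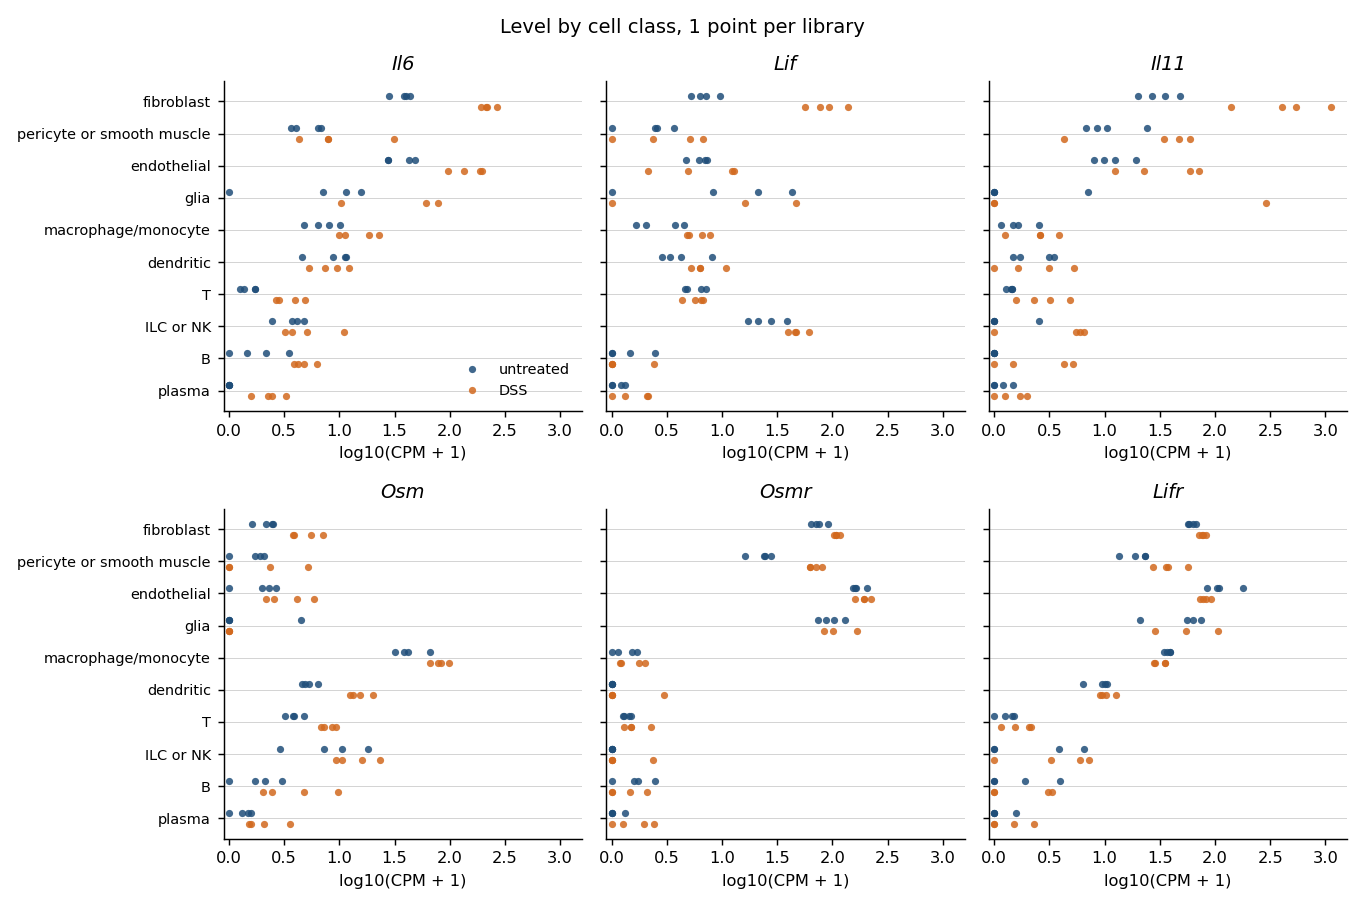
Level of each gene in 10 barcode classes, with 1 point per library of at least 20 barcodes (blue untreated, orange DSS) on a log10(CPM + 1) axis. Il6, Lif and Il11 points of fibroblasts shift to the right after DSS, while Osm is highest in macrophages and monocytes among the classes shown, and Osmr points of blood-derived classes sit near 0.

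The order of classes was read within each treatment, with no test between classes. For Il6, untreated fibroblasts (26.8 to 42.2 CPM) and endothelium (26.3 to 46.9 CPM) overlapped. After DSS fibroblasts (189 to 268 CPM) stood above endothelium (94.6 to 193 CPM) within each of the 4 libraries, although the ranges touched, and glia had 9.27 to 76.5 CPM in 3 libraries. For Osmr, endothelium (154 to 225 CPM) lay above fibroblasts (63.4 to 116 CPM) in all libraries. Glia (73.2 to 166 CPM, 7 libraries) overlapped both, and pericytes or smooth muscle ranged from 15.02 to 78.8 CPM. The oncostatin M receptor chain was low in blood-derived cells. Osmr was at most 1.97 CPM in every library of macrophages and monocytes, dendritic cells, T cells, B cells, plasma cells and innate lymphoid or NK cells, and in neutrophils it was 7.39 CPM in 1 DSS library, from 1 UMI, and 0 in the other 3. Lifr in untreated endothelium (83.3 to 179 CPM) lay above fibroblasts (56.0 to 65.8 CPM) in all libraries, and after DSS the classes overlapped (71.6 to 91.5 CPM and 70.3 to 82.0 CPM). Over both treatments, macrophages and monocytes stood lower at 27.0 to 38.4 CPM. Lifr thus spanned stroma and myeloid cells. For Lif, untreated innate lymphoid or NK cells (16.3 to 37.5 CPM) lay above fibroblasts (4.28 to 8.55 CPM) in all libraries. After DSS the ranges overlapped, at 38.3 to 60.5 CPM in the lymphoid class and 55.2 to 138 CPM in fibroblasts, and the fibroblast mean was the higher (90.5 against 47.3 CPM). The DSS difference within the lymphoid class was not tested. For Il11, untreated fibroblasts (18.9 to 46.9 CPM) overlapped pericytes or smooth muscle (5.83 to 23.2 CPM). After DSS fibroblasts (139.9 to 1129.6 CPM) stood above that class (3.33 to 58.4 CPM), while glia had 0 to 287 CPM in 3 libraries.

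Plasma cells and B cells, which are not known as main sources of Il6, Il11 or Osm, give a level to set the shares beside. At 1000 UMIs per barcode, 0.238% of plasma barcodes and 0.561% of B barcodes had an Il6 UMI after DSS, against 13.7% of fibroblast barcodes (means of 4 libraries). Without thinning, the Il6 share was 1.122% of plasma, 1.116% of B and 34.99% of fibroblast barcodes, and median depth over all libraries was 8087 UMIs in plasma cells, 1785 in B cells and 5085 in fibroblasts. Thinning left out 13 plasma, 316 B and 162 fibroblast barcodes. Il11 in plasma cells was 0 to 0.968 CPM over the 8 libraries, and in B cells 0 untreated and 0 to 4.20 CPM after DSS. These shares are means of libraries and the levels are ranges over libraries, so the number of UMIs does not give their spread between libraries.

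The DSS comparison asks what the injury changed in wildtype and mutant colon. In fibroblasts all 6 genes were called after DSS when the effect was averaged over genotypes, each of them higher. Of all 13385 genes tested there, 22.9% were called, 12.1% in the higher direction. The increases were large for the ligands Lif, Il11 and Il6 and small for the receptor chains Osmr and Lifr.

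Il6, the pleiotropic cytokine that gives the family its name, had 42.2 and 37.4 CPM in the wildtype untreated fibroblasts and 38.9 and 26.8 CPM in the mutant untreated ones. After DSS the values were 268 and 213 CPM in wildtype and 216 and 189 CPM in mutant. The groups did not overlap, and the lowest DSS library stood above the highest untreated one. The log2 fold change was 2.67 ± 0.14 (SE, 6.35-fold, edgeR adjusted p = 2.47e-05). Thinned to 1000 UMIs, 1.62% to 4.14% of fibroblast barcodes per untreated library had an Il6 UMI, against 13.2% to 14.3% per DSS library.

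Lif, a ligand of the Lifr and gp130 pair, was low in untreated fibroblasts, at 8.55 and 4.28 CPM in wildtype and 6.10 and 5.31 CPM in mutant. It reached 76.2 and 138 CPM in wildtype and 55.2 and 92.5 CPM in mutant after DSS. Untreated and DSS libraries did not overlap, and the rise was 3.99 ± 0.32 on the log2 scale (15.9-fold, edgeR adjusted p = 0.000134).

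Il11, an interleukin known for its action on stromal cells and tissue repair, varied most between DSS libraries. Untreated fibroblasts had 34.5 and 46.9 CPM in wildtype and 25.7 and 18.9 CPM in mutant. After DSS the 2 wildtype libraries had 139.9 and 1129.6 CPM, and the 2 mutant libraries had 407 and 544 CPM. No DSS library fell within the untreated range, but the wildtype pair spread far more widely than the mutant pair. The log2 fold change was 4.30 ± 0.58 (19.6-fold, edgeR adjusted p = 0.00177), and with each library left out in turn it ranged from 3.12, without the second wildtype DSS library, to 4.71. The calls for Il6, Lif and Il11 each held in all 8 such fits, the first untreated mutant library included.

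**Figure D2:**
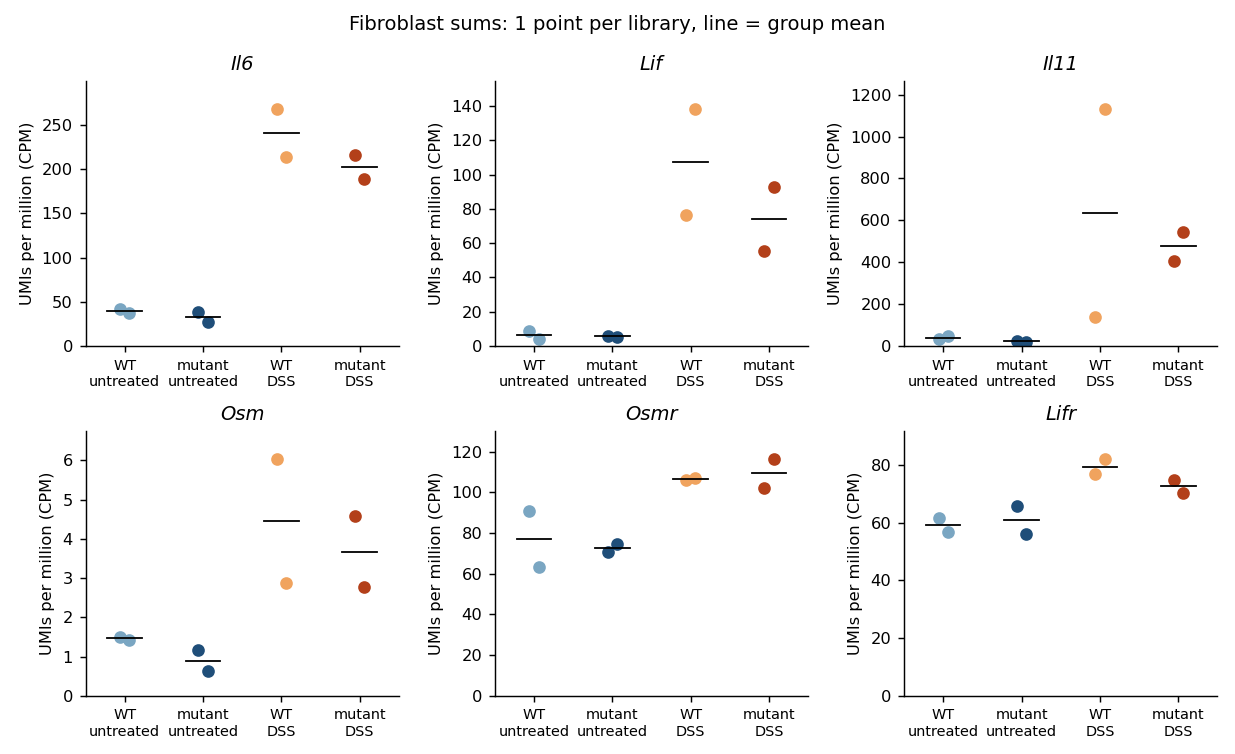
Level of the 6 genes in summed fibroblast barcodes, in CPM on linear axes that start at 0, with 1 point per library and a line at the mean of the 2 libraries of each group. The DSS points of Il6, Lif and Il11 lie above all untreated points, and the wildtype DSS points of Il11 lie at 139.9 and 1129.6 CPM.

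Osm in fibroblasts was called (log2 fold change 1.73 ± 0.34, edgeR adjusted p = 0.00935), but its level was 0.624 to 1.49 CPM untreated and 2.76 to 6.03 CPM after DSS. B cells had 0 to 1.99 and 1.05 to 8.66 CPM, ranges that overlap those of fibroblasts, and free RNA was not measured apart. All 10 macrophage and monocyte markers were detected in the fibroblast sums of both treatments, at a summed 106 to 250 CPM untreated and 152 to 250 CPM after DSS. Other lists moved further in the fibroblast sums: the 5 plasma markers went from 958 to 1409 CPM to 3344 to 5791 CPM, and the 7 pericyte or smooth muscle markers from 909 to 1225 CPM to 132 to 731 CPM. The part of these in the Osm value and in the other fibroblast results was not tested.

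The receptor chains moved less. Osmr, the chain that binds oncostatin M together with gp130, was 90.6 and 63.4 CPM in wildtype untreated fibroblasts and 70.7 and 74.6 CPM in mutant untreated ones. After DSS it was 106 and 107 CPM in wildtype and 102 and 116 CPM in mutant. The log2 fold change was 0.60 ± 0.14 (1.52-fold, edgeR adjusted p = 0.0155). Without the second wildtype untreated library, either mutant untreated library or the second wildtype DSS library, the call was lost (adjusted p = 0.0621, 0.0698, 0.058 and 0.0698). Lifr rose from 56.0 to 65.8 CPM over the untreated libraries to 70.3 to 82.0 CPM over the DSS libraries (0.41 ± 0.11, edgeR adjusted p = 0.0246). That call was lost without any 1 of the untreated libraries or the second wildtype DSS library, with adjusted p = 0.062 to 0.122.

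The fibroblast class changed its make-up. Cluster 8, led by Meg3, Htra3 and C1qtnf3 and also marked by Adamdec1, held 52.3% to 59.0% of untreated fibroblast barcodes per library and 3.05% to 21.9% after DSS. Cluster 16, led by Il11, Mmp3 and Cxcl5, held 5 to 12 barcodes per untreated library and 63 to 628 after DSS. Cluster 12 (led by Ogn, Rbp4 and Bmp3) and cluster 14 (led by Cilp, Lum and Mmp3) were present in all libraries. A higher sum in the class can therefore come from more barcodes of 1 kind or from more RNA per barcode, and within a cluster those are partly separated.

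Within cluster 14, Il6 rose. Its 4 untreated libraries had 123, 88.1, 94.0 and 47.1 CPM of Il6, and its 4 DSS libraries 511, 738, 571 and 452 CPM. In a fit of cluster 14 alone, added after the data were seen, Il6 rose by 2.75, Lif by 3.55, Il11 by 2.79, Lifr by 0.99 and Osmr by 0.61 on the log2 scale (edgeR adjusted p = 3.23e-06, 3.57e-05, 4.17e-05, 0.00525 and 0.0173). Osm was not called in cluster 14 (0.91, adjusted p = 0.27), so the Osm call of the class was lost there. In cluster 8 alone, Il6 had 34.6 to 47.0 CPM untreated and 25.4 to 103 CPM after DSS, and its difference of 0.13 was not called (edgeR adjusted p = 0.852). Il11 in cluster 8 differed by -0.12 and Osmr by -0.07 (adjusted p = 0.93 and 0.929), so neither gave a call there, while Lif rose by 1.86 (adjusted p = 0.0388). In cluster 12 only Il11 was called of the 5 members tested, at 15.3 to 28.8 CPM untreated and 52.2 to 263 CPM after DSS (3.09, edgeR adjusted p = 0.00892). DSS sums of cluster 8 rested on 22 to 190 barcodes. No test compares one cluster's effect with another's.

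Cluster 16 had no untreated library with 20 barcodes and is described only after DSS. Its Il11 level was 140.5 and 1612 CPM in wildtype and 886 and 741 CPM in mutant, its Il6 level 25.9 to 124 CPM and its Lif level 7.39 to 117 CPM. The first wildtype DSS library was the lowest for Il11 here as it was in the class, and it held 63 of these barcodes against 628 in the second. Median depth in cluster 16 was 7045 UMIs, the highest of the 4 fibroblast clusters. With the barcodes of highest doublet score removed, the class value of Il11 was 4.24 (edgeR adjusted p = 0.00167).

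**Figure D3:**
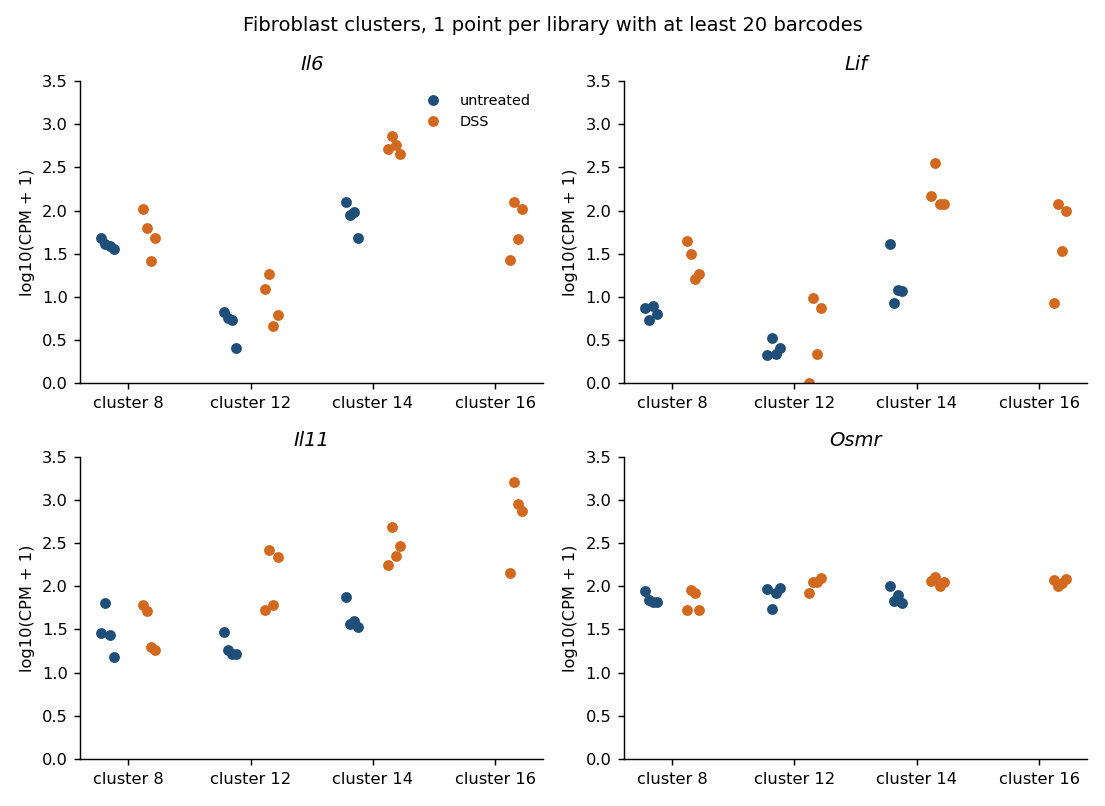
Level of Il6, Lif, Il11 and Osmr in the 4 fibroblast clusters on a log10(CPM + 1) axis, with 1 point per library of at least 20 barcodes (blue untreated, orange DSS). Il6 is highest in cluster 14 and lowest in cluster 12, Il11 of DSS libraries is highest in cluster 16 in 3 of 4 libraries (the first wildtype one is higher in cluster 14), and Osmr points lie between 51.4 and 127 CPM.

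The stretches of 250 bases upstream of the annotated starts are shown for Il6, Lif and Il11, the 3 ligands with the largest increases in fibroblasts. Il6 lies on chromosome 5 (30013114 to 30019981), Lif on chromosome 11 (4257557 to 4272514) and Il11 on chromosome 7 (4772373 to 4782859), in GRCm38. Capitals mark matches to AP-1 (TGANTCA), C/EBP (TTGCNNAA), NF-kB (GGGNNTTTCC) or STAT (TTCNNNGAA) on either strand, or to a TATA box (TATANA) on the gene's strand. Sequences are from RefSeq, build GRCm38.p6, at chr5:30012864-30013113 (plus strand), chr11:4257318-4257567 (plus strand) and chr7:4778142-4778391 (minus strand, inside an intron of the longer Il11 transcripts), written 5′ to 3′.
Il6: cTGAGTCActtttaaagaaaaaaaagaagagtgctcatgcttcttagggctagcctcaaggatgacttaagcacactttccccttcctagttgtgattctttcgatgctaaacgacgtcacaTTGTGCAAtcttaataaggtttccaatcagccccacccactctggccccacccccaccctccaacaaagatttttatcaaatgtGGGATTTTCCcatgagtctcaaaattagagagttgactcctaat
Lif: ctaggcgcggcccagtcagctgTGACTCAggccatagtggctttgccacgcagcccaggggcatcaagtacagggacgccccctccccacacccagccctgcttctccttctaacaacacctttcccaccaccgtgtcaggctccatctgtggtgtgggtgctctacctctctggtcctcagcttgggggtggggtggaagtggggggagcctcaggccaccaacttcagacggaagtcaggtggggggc
Il11: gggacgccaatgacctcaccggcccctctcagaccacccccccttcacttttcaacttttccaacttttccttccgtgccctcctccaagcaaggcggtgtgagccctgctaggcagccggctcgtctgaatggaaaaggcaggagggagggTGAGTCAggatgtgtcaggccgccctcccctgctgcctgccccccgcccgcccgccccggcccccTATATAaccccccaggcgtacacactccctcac
An AP-1 match was found in each of these 3 stretches, beginning 249 bases before the start of Il6, 228 before that of Lif and 98 before that of Il11. Of 32851 upstream stretches of that length, 6.75% held an AP-1 match. Il6 also held an NF-kB match 44 bases before its start (1.41% of all stretches) and a C/EBP match 128 bases before it (9.56%). Il11 held a TATA box 33 bases before its start (16.4%), and no STAT match was found in any of the 3 (7.02% of all stretches held one). A second Il11 start at 4782857, the Osmr start and both Lifr starts held none of the first 4 motifs. These are letter matches only, no 2 of these matches overlapped, and the motifs were chosen with the sequences known. The table had entries for 5 of the 6 members, all but Osm.

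Osm and Lif are neighbours on chromosome 11, where Osm (4236420 to 4241026) ends 16.5 kb before Lif begins, on the same strand. Osmr (6813577 to 6874969) and Lifr (7090614 to 7197489) lie 215.6 kb apart on chromosome 15, on opposite strands. The neighbours Osm and Lif had most of their UMIs in different classes, Osm in macrophages and monocytes and Lif in fibroblasts.

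In macrophages and monocytes, the class with most Osm, all 4 members tested were called after DSS, where 25.4% of 10886 genes were called. Osm was 37.7 and 30.9 CPM in wildtype untreated libraries and 65.3 and 41.2 CPM in mutant untreated ones. After DSS it was 65.4 and 98.0 CPM in wildtype and 82.9 and 77.7 CPM in mutant. The first mutant untreated library stood just under the lowest DSS library, so the gap between treatments was narrow. The rise was 0.76 ± 0.16 on the log2 scale (1.69-fold, edgeR adjusted p = 0.0085). Without the second wildtype untreated library the adjusted p was 0.0533. Thinned to 1000 UMIs, 4.40% of barcodes had an Osm UMI untreated and 7.34% after DSS, as means of 4 libraries (14.7% and 17.4% unthinned).

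The macrophage and monocyte class held 2 clusters, of which cluster 13, led by Chil3, Retnla and F10, made up 8.08% to 18.9% of untreated and 17.6% to 25.9% of DSS barcodes. Osm in cluster 13 was 56.5, 35.5, 80.001 and 36.0 CPM untreated (in the order of wildtype and mutant libraries) and 135, 144, 151 and 85.8 CPM after DSS (1.22, edgeR adjusted p = 0.00417). In cluster 3, led by H2-M2, Ms4a7 and C3ar1, Osm was 30.05 to 64.1 CPM untreated and 46.5 to 80.1 CPM after DSS, and the difference of 0.45 was not called (adjusted p = 0.0807). The summed level of the 10 macrophage and monocyte markers in the class was 16260 to 20443 CPM untreated and 10731 to 12444 CPM after DSS, and its part in the Osm result was not tested.

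Lif in macrophages and monocytes rose from 0.657 to 3.49 CPM to 3.86 to 6.76 CPM (1.43 ± 0.28, edgeR adjusted p = 0.00567), a small level beside that of fibroblasts. Il6 there rose by 1.08 ± 0.34 (edgeR adjusted p = 0.0388), from 3.77 to 9.13 CPM to 8.83 to 21.9 CPM. In the same sums the 8 fibroblast markers went from 18.8 to 34.7 CPM to 35.02 to 78.1 CPM and the 8 T markers from 406 to 472 CPM to 529 to 681 CPM, and their part in the Lif and Il6 values was not tested. The Il6 call was lost without any 1 of 5 libraries (both wildtype untreated, the first mutant untreated, the first wildtype DSS or the first mutant DSS; adjusted p = 0.0768 to 0.163). In cluster 13 alone the Il6 difference was -0.04. In cluster 3 alone Il6 went from 2.26 to 7.43 CPM to 9.02 to 18.2 CPM, and the call held. Lifr was the member that fell, from 33.4 to 38.4 CPM to 27.0 to 34.3 CPM (log2 fold change -0.40 ± 0.12, edgeR adjusted p = 0.0362). The fall was not called without the second wildtype untreated library, either mutant untreated library, either wildtype DSS library or the first mutant DSS library (adjusted p = 0.0517 to 0.145). The fall of Lifr was also not called by DESeq2, with classes set from marker UMIs or with the barcodes of highest doublet score removed. It was called in cluster 3 alone and in cluster 13 alone. Il11 and Osmr did not pass the filter on low counts in this class.

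Neutrophils, known to carry Osm in inflamed tissue, had 20 or more barcodes only in the 4 DSS libraries, so DSS was not compared with untreated. In the fit of mutant against wildtype after DSS no member passed the filter on low counts. Their Osm level was 26.0 and 117 CPM in wildtype and 81.3 and 59.1 CPM in mutant, from 30 Osm UMIs over 143 barcodes. In dendritic cells Osm was the only member called of 4 tested, where 15.3% of genes were called. It was 4.28 and 3.83 CPM in wildtype untreated libraries, 3.55 and 5.35 CPM in mutant untreated ones, 12.3 and 11.4 CPM in wildtype after DSS and 14.5 and 19.0 CPM in mutant after DSS. All DSS libraries stood above all untreated ones (1.57 ± 0.30, edgeR adjusted p = 0.00337). In the same sums the 8 dendritic markers went from 991 to 1256 CPM to 1430 to 1817 CPM, the 8 T markers from 778 to 859 CPM to 919 to 1613 CPM the 8 innate lymphoid or NK markers from 131 to 193 CPM to 207 to 251 CPM and the 10 macrophage and monocyte markers from 1025 to 1367 CPM to 410 to 881 CPM, and their part was not tested. By marker UMIs alone, 140 of the 1859 barcodes of this class were dendritic, 612 were T, 125 were macrophage or monocyte and 967 had no class, so its name rests on the clusters, and no fit of Osm was had with classes set that way.

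In endothelium, 2 of 5 members tested were called against 5.11% of 11077 genes. Il6 was 46.9 and 26.3 CPM in wildtype untreated libraries and 42.0 and 26.4 CPM in mutant untreated ones, and it reached 94.6 and 188 CPM in wildtype and 193 and 133 CPM in mutant after DSS. The treatments did not overlap, and Il6 rose by 2.09 ± 0.26 on the log2 scale (4.25-fold, edgeR adjusted p = 0.00228). Both endothelial clusters gave the call alone. In cluster 11, led by Plvap, Flt1 and Kdr with haemoglobin transcripts, the log2 fold change was 2.02 (edgeR adjusted p = 0.00212). In cluster 20, led by the lymphatic genes Ccl21a, Mmrn1 and Lyve1, Il6 went from 0 to 14.8 CPM to 28.0 to 84.2 CPM (2.97, adjusted p = 0.00764).

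Il11 in endothelium was called at 1.88 ± 0.46 (edgeR adjusted p = 0.038), from 6.93 to 18.4 CPM untreated to 11.5, 70.8, 21.8 and 58.9 CPM after DSS. The ranges overlapped, and with classes set from marker UMIs alone the difference was 0.43 (edgeR adjusted p = 0.644). DESeq2 did not call Il11 here either. Without any 1 untreated library or the second DSS library of either genotype the call was also lost, at adjusted p = 0.0616 to 0.373. All 8 fibroblast markers were detected in the endothelial sums, at a summed 1289 to 2067 CPM untreated and 1572 to 1926 CPM after DSS, and other lists moved more. The 7 pericyte or smooth muscle markers went from 2045 to 2480 CPM to 2440 to 4200 CPM, the 5 erythroid markers from 475 to 1943 CPM to 1019 to 4100 CPM, the 8 dendritic markers from 83.0 to 111 CPM to 129 to 147 CPM and the 5 mast cell markers from 3.03 to 12.5 CPM to 21.9 to 45.3 CPM. Their part in the Il6 and Il11 values was not tested. Within cluster 11, Il11 was 8.43 to 27.7 CPM untreated and 16.2 to 81.8 CPM after DSS. Within cluster 20 it was 0.738 to 4.13 CPM and then 0 to 50.5 CPM. Osmr, highest in this class, was 153.9 to 203.03 CPM untreated and 159 to 225 CPM after DSS (0.17 ± 0.15, edgeR adjusted p = 0.545). Lifr was 83.3 to 179 CPM and then 71.6 to 91.5 CPM (-0.52 ± 0.19, adjusted p = 0.132).

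Pericytes or smooth muscle, tested after their levels were seen, differed in Osmr between treatments, the only member called of 3 tested. Osmr was 27.0 and 23.2 CPM in wildtype untreated libraries and 23.6 and 15.02 CPM in mutant untreated ones. After DSS it was 61.5 and 61.1 CPM in wildtype and 78.8 and 70.3 CPM in mutant, all above the untreated libraries. It rose by 1.47 ± 0.19 on the log2 scale (2.77-fold, edgeR adjusted p = 0.00349), in a class where 3.97% of 9008 genes were called, and the call held with each library left out. Lifr (0.94, adjusted p = 0.077) and Il11 (1.58, adjusted p = 0.154) were not called by edgeR. The 8 fibroblast markers summed to 4679 to 7166 CPM there untreated and 5976 to 7875 CPM after DSS. The 7 markers of the class itself went from 25417 to 33954 CPM to 13937 to 24292 CPM, the 10 macrophage and monocyte markers from 379 to 794 CPM to 115 to 281 CPM and the 8 neutrophil markers from 60.5 to 82.0 CPM to 25.01 to 44.8 CPM, and the part of these lists was not tested. By marker UMIs alone, 230 of the 1250 barcodes of this class were pericyte or smooth muscle, 388 were fibroblast and 546 had no class, and no fit of Osmr was had with classes set that way.

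In T cells, the class the enrichment aimed at, 3 of 5 members tested were called against 22% of 12529 genes, all at low levels. Il6 was 0.255 to 0.714 CPM untreated and 1.64 to 3.89 CPM after DSS (2.27 ± 0.43, edgeR adjusted p = 0.0113, and 0.0511 without the second wildtype untreated library). Il11 was 0.268 to 0.448 CPM and then 0.575 to 3.83 CPM (2.18 ± 0.60, adjusted p = 0.0329). The Il11 call was lost without any 1 untreated library or the second DSS library of either genotype (adjusted p = 0.0694 to 0.117). B cells had 0 to 2.48 CPM of Il6 untreated and 2.90 to 5.25 CPM after DSS. Their Il11 was 0 and then 0 to 4.20 CPM, from 8 UMIs in all, against 182 in T cells. The DSS values of T cells did not exceed these B-cell ranges, of which that of Il11 rests on few UMIs. Osm in T cells went from 2.24 to 3.79 CPM to 5.84 to 8.33 CPM (1.17 ± 0.20, edgeR adjusted p = 0.0088). Thinned, 0.28% and then 0.729% of T barcodes had an Osm UMI, against 0.162% and 0.622% of B barcodes, at median depths of 1952 and 1785 UMIs. The 10 macrophage and monocyte markers summed to 72.3 to 186 CPM in untreated T cells and 107 to 356 CPM after DSS. Lists whose ranges did not overlap were the 8 dendritic markers (140 to 165 CPM, then 168 to 266 CPM), the 8 neutrophil markers (10.6 to 12.6 CPM, then 14.99 to 25.3 CPM) and the 8 T markers themselves (3613 to 4148 CPM, then 3146 to 3534 CPM). The part of these lists in the T-cell results was not tested. Lif in T cells did not give a call (-0.05 ± 0.19, adjusted p = 0.881), at 3.65 to 6.17 CPM untreated and 3.33 to 5.79 CPM after DSS.

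**Figure D4:**
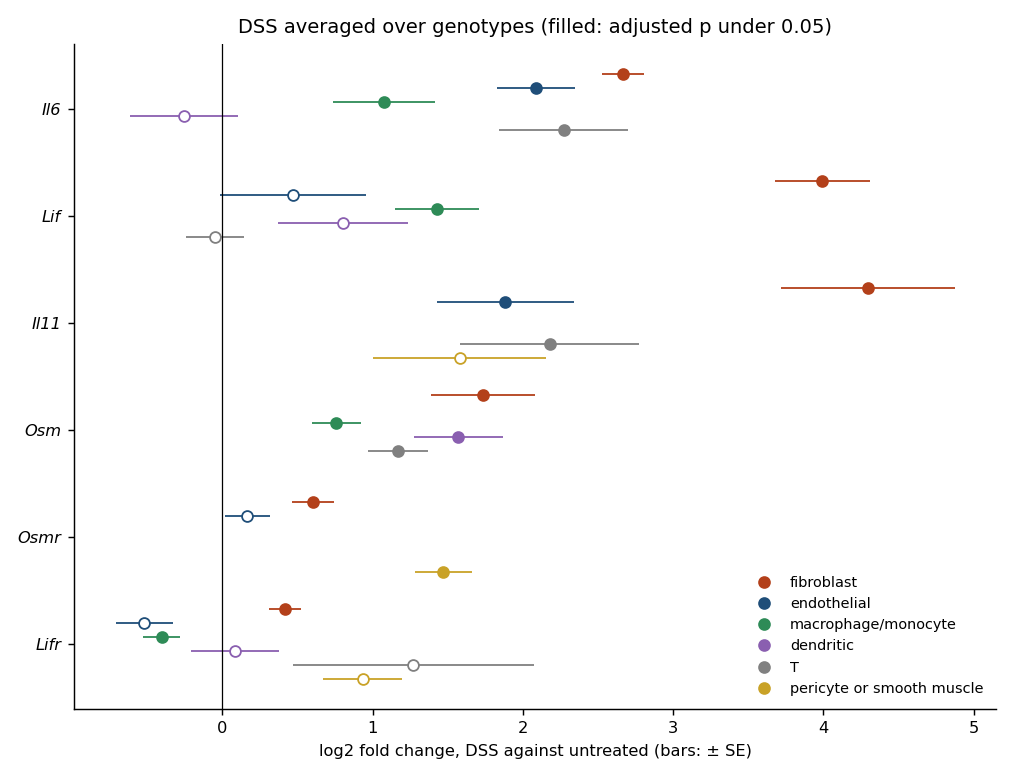
Log2 fold change of each gene, DSS against untreated averaged over genotypes, by class (points, with bars of ± 1 SE), filled where the edgeR adjusted p was under 0.05. In fibroblasts Lif (3.99) and Il11 (4.30) lie farthest to the right, and Lifr of macrophages and monocytes (-0.40) is the only filled point below 0.

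Within each genotype fewer pairs of member and class were called, of the 24 tested in fibroblasts, endothelium, macrophages and monocytes, dendritic cells and T cells. Pericytes or smooth muscle, added later, are counted apart. In wildtype 3 were called, Il6, Lif and Il11 in fibroblasts, with log2 fold changes of 2.65, 4.22 and 4.10 (edgeR adjusted p = 0.000573, 0.00202 and 0.0257). The share of all genes called in wildtype was 4.33% in fibroblasts, 0.162% in endothelium, 0.882% in macrophages and monocytes, 1.95% in dendritic cells and 0.112% in T cells. In mutants 8 were called: Il6, Lif, Il11 and Osm in fibroblasts, Il6 in endothelium, Osm in dendritic cells, and Il6 and Osm in T cells. In pericytes or smooth muscle, Osmr was called in mutants (1.75, edgeR adjusted p = 0.0171) and not in wildtype (1.19, adjusted p = 0.148), where 0.744% and 0.133% of all genes were called. The mutant fold changes of Il6, Lif and Il11 in fibroblasts were 2.68, 3.77 and 4.49 (edgeR adjusted p = 0.00052, 0.00316 and 0.0148). The share of all genes called in mutants was 9.83%, 1.37%, 14.8%, 4.97% and 7.57% in the same order of classes. Without either wildtype untreated library the wildtype call of Il11 was lost (adjusted p = 0.21 and 0.188), and without either mutant untreated library so was the mutant call (adjusted p = 0.115 and 0.11). Of the other mutant calls, those of Osm in fibroblasts, Il6 in T cells and Osm in T cells were each lost in 6 of 8 fits with 1 library left out, that of Osm in dendritic cells in 5, that of Osmr in pericytes or smooth muscle in 2 and that of Il6 in endothelium in 1. Each of the mutant untreated libraries ended the calls of Osm in fibroblasts, Osm in dendritic cells and both T-cell calls when left out (adjusted p = 0.101 to 0.246). Without the second wildtype DSS library the wildtype value of Il11 was 1.74 (adjusted p = 0.042). The pairs called in 1 genotype only are not shown to differ, since the interaction gave no call.

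The comparison of mutant with wildtype asks whether the RORgt substitution altered these genes, before and after DSS. No member was called in any class by edgeR with the filter on low counts, untreated, after DSS or in the interaction, and DESeq2 called none either. Without that filter, 2 pairs were called untreated: Il11 in fibroblasts (-0.91, edgeR adjusted p = 0.00422) and Lif in macrophages and monocytes (1.85, adjusted p = 0.0338), where 0.456% and 0.687% of all genes were called. Of the 24 pairs with the filter, 2 had an unadjusted p under 0.05 untreated, 0 after DSS and 1 in the interaction. The share of all genes called was 0% in fibroblasts, endothelium, macrophages and monocytes and T cells in all 3 comparisons. In dendritic cells it was 0.0114% untreated, 0.0114% after DSS and 0% in the interaction, and in pericytes or smooth muscle 0.0222%, 0.0111% and 0.0111%. In fibroblasts after DSS, mutant minus wildtype was -0.28 ± 0.18 for Il6, -0.62 ± 0.37 for Lif and -0.52 ± 0.71 for Il11 on the log2 scale (edgeR adjusted p = 1 for each). The precision thus differed between genes, and for Il11 the spread of the wildtype pair left a difference of either sign within 1 SE. Lif in macrophages and monocytes had the smallest untreated p: 0.657 and 1.03 CPM in wildtype and 3.49 and 2.71 CPM in mutant (1.87 ± 0.44, edgeR adjusted p = 0.522).

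The partner chains in fibroblasts were not all alike; they are given here after their values were seen. Il6st, the shared signalling chain gp130, was 191 to 213 CPM untreated and 284 to 299 CPM after DSS (0.55 ± 0.11, edgeR adjusted p = 0.00799). The ligand-specific chains fell: Il6ra from 59.3 to 68.6 CPM to 37.7 to 40.9 CPM (-0.63 ± 0.10, adjusted p = 0.00447) and Il11ra1 from 228 to 333 CPM to 67.9 to 163 CPM (-1.09 ± 0.23, adjusted p = 0.0121). Over the list of 13 other ligands and receptor chains, 9 were tested in fibroblasts, 3 rose (Il6st and Clcf1 among them) and 2 fell (Il6ra and Il11ra1), where 22.9% of all genes were called. Their median log2 fold change was 0.22, against 0.0036 over all genes tested.

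Of 14 signalling and feedback genes, all tested in fibroblasts, 3 rose (Stat3, Bcl3 and Cebpb) and Socs1, a feedback inhibitor, fell, with a median of 0.03. That share of called genes is near the 22.9% of all genes called in fibroblasts and says nothing of the list. Socs3 of the same list, picked after its values were seen, was not called, at 369 to 484 CPM untreated and 207 to 414 CPM after DSS. Of 19 genes known to be induced by these cytokines or in inflamed stroma, all tested, 16 rose and 0 fell, with a median of 1.86. The largest changes were in Lcn2, an iron-binding defence protein (1.09 to 4.84 CPM untreated, 113 to 287 CPM after DSS, log2 fold change 6.19 ± 0.42), Saa3, an acute-phase protein (43.8 to 134 CPM, then 2608 to 4925 CPM, 5.38 ± 0.37), Mmp3, a matrix protease (12.5 to 27.0 CPM, then 413 to 517 CPM, 4.69 ± 0.22) and Il33, an alarmin (21.1 to 25.4 CPM, then 65.3 to 205 CPM, 2.37 ± 0.31). Their edgeR adjusted p were 7.87e-05, 7.87e-05, 1.01e-05 and 0.00156. These lists were chosen with results of these samples known, so their direction is no independent evidence.

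Elsewhere the induced list gave 12 higher of 16 tested in pericytes or smooth muscle (3.97% of all genes called there), 9 of 17 in endothelium (5.11%), 9 of 16 in T cells (22%) and 4 of 11 in dendritic cells (15.3%), where Icam1 fell. In T cells Mmp3 was 0 CPM untreated and 0.144 to 1.46 CPM after DSS, and Saa3 0.955 to 4.89 and then 8.81 to 61.0 CPM. Saa3 in fibroblasts after DSS was 2608 to 4925 CPM, and RNA carried over from other cells was not measured apart. In macrophages and monocytes, where 25.4% of all genes were called, 5 of 14 rose and 3 (Ccl2, Icam1 and Pdpn) fell. The other ligands and receptor chains gave 0 called of 5 in endothelium, 1 of 5 in pericytes or smooth muscle (Il6st, higher) and 2 of 6 in T cells (Il6st and Ebi3, both higher). In macrophages and monocytes 2 of 7 rose, a share near that of all genes there, namely Il27ra and Clcf1, the latter from 11.04 to 15.5 CPM to 33.0 to 53.8 CPM (1.39 ± 0.18, edgeR adjusted p = 0.00116). In dendritic cells, where 15.3% of all genes were called, 2 of 6 were called: Il6ra fell by 0.97 on the log2 scale and Il27ra rose by 0.97 (edgeR adjusted p = 0.00845 and 0.0382).

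Genes with the most similar pattern were ranked by Pearson r of log2(CPM + 1) over 87 class-by-library sums, which share libraries and cell classes. Osmr was closest to Nr2f2 (r = 0.978), Nfib (0.971) and Atp8b1 (0.969), and Osm to Ccr1 (0.903), Lrrc25 (0.882) and Nlrp3 (0.88). Il11 was closest to Dpep1 (0.879), Sfrp2 (0.876) and Has1 (0.858), and Lifr to Fcgrt (0.913), Pros1 (0.903) and Sbf2 (0.901). Lif had no close match, with Morf4l2 first at 0.744.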

How the data were processed

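Each of the 8 libraries has 1 table that the authors deposited, holding whole-number UMI counts of every gene in every barcode, with no scaling. Per the submitters' processing notes, Cell Ranger 3.1.0, Seurat 4.0.1 and the build mm10 (GRCm38) were used. Rows of 7 tables carry numbers, so genes were read from a deposited list of symbols (98.5% of identifiers in the 1 table that has them had the listed symbol). A second deposited table lists the 27420 cells the authors kept. All barcodes were used here, since the stromal cells lie mostly outside it.

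Barcodes with at least 400 genes and under 20% mitochondrial UMIs were clustered (scanpy 1.11.5, leidenalg 0.10.2; 1475 variable genes, 30 components, 37 clusters). Names came from fixed markers. Some naming rules were set after the clusters were seen: clusters with at least 80% of barcodes from 1 library, with mixed markers or with leading genes of another type stayed unnamed. Scrublet called under 0.5% of barcodes in 7 libraries, so its calls were not used. Counts were summed per class and library (at least 20 barcodes) and tested with edgeR 4.0.16 (TMM, filterByExpr, quasi-likelihood, Benjamini-Hochberg adjustment, 4 group means). Comparisons were DSS against untreated (averaged and by genotype), mutant against wildtype, and the interaction. Each SE was worked back from the test, as the absolute log2 fold change over the square root of the F statistic. With 2 libraries per group, the spread of a gene was estimated over all 4 groups and drawn toward a trend over all genes. The p-values rest on that estimate, also in the comparisons within 1 genotype. On simulated fibroblast counts (13260 genes), 66% of changes of 2-fold and 100% of 4-fold were recovered, with 5 false calls. The simulation gave every gene the same spread between libraries and covered DSS averaged over genotypes only. Recovery in the other comparisons, or for genes that vary more, was not simulated. Shares of barcodes with a UMI were thinned to 1000 UMIs. Alternatives were DESeq2 1.42.0, no filter, each library left out, barcodes of at least 1000 UMIs, classes set from marker UMIs, only the libraries compared, removal of high doublet scores, and single clusters.

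The genes and pathway lists were chosen with earlier results of these data known. All members were described in every class. Pathway genes named were up to 5 called per class with the largest changes. Some genes that these rules name are not reported here. Others are marked as chosen after their values were seen. Positions are from GENCODE vM21.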

Additional observations from a re-analysis of the deposited data

How the results depend on the processing

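Alternative fits were counted over the members called after DSS averaged over genotypes, Osmr in pericytes or smooth muscle included. Of 219 such fits, 180 kept direction and call and 39 kept direction only. For that Osmr pair, 12 of 12 kept both. The 26 fits within single clusters are counted apart: 15 kept both, 8 kept direction only and 3 reversed. Pericytes or smooth muscle are left out of the counts that follow. The counts below are of called pairs of member and class, 24 tested in the main analysis, followed by the range over classes of the share of all genes called. For DSS averaged, 16 were called (5.11% to 25.4% of all genes), and 8 to 14 with 1 library left out (1.18% to 29.4%; 8 without the second wildtype untreated library, 10 without the first mutant untreated one). In wildtype, 3 were called (0.112% to 4.33%), against 6 by DESeq2 (0.56% to 4.45%), 13 of 30 without the filter on low counts (1.74% to 8.46%), 6 with only the libraries compared (0.301% to 7.01%), and 2 to 5 with 1 library left out (0% to 8.83%; 5 without either mutant DSS library). In mutants, 8 were called (1.37% to 14.8%), against 14 without the filter (5.28% to 13.3%), 5 with only the libraries compared (1.24% to 9.77%), and 2 to 10 with 1 left out (0% to 20.2%; 4 without either wildtype untreated library or the second mutant DSS one, 3 and 2 without the first and second mutant untreated ones). For mutant against wildtype untreated, 0 were called (0% to 0.0114%), and 2 without the filter (0.245% to 0.987%): Il11 in fibroblasts (-0.91) and Lif in macrophages and monocytes (1.85). Signs turned within single clusters, fits chosen after seeing the data. In fibroblast cluster 8, the averaged DSS value was -0.070 for Osmr and -0.12 for Il11, and the mutant value -0.31 for Il6 and -0.28 for Il11. In macrophage and monocyte cluster 13, Il6 was -0.044. The cause was not tested.

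No paired analysis was run, because the numbers in the titles are not shared between groups and no label pairs libraries. Each wildtype title carries a number close to that of a mutant title of the same treatment, but no label says what the numbers stand for. The tests of mutant against wildtype thus took no such pairing into account. Without thinning, shares of barcodes with a UMI were higher in both treatments, for example 11.6% and 34.99% for Il6 in fibroblasts. Neutrophils gave no DSS comparison, since no untreated library had 20 barcodes. Scrublet's own calls, planned as an alternative, could not be used, and removal of the highest 8% of scores was added after seeing the data.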
